A study of Homo sapiens
Mus musculus and Homo sapiens with 21 samples.

Results

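Human transcripts of lung adenocarcinoma cells growing in the forebrain of mice were compared with those of the same cells growing in the hindbrain. The members are the 6 libraries of tumour-bearing brain, chosen by their titles, out of 21 libraries in the series. Forebrain metastases (FBMet) gave 3 libraries and hindbrain metastases (HBMet) gave 3. Each came from athymic nu/nu mice, which lack mature T cells, injected into the heart with H2030-BrM3 cells at an age of 5 to 6 weeks. H2030-BrM3 is a brain-seeking derivative of the established human lung adenocarcinoma line H2030, so a single cell line stands for the cancer in both regions. Tumours were cut out together with adjacent stroma and frozen, and most RNA of each library was therefore mouse RNA. For context, values are given for 4 subcutaneous tumours (SQ) of the same cells in the same strain and for 3 monolayer cultures (2D). The background of human values was read from tumour-free forebrain (FB, 4 libraries) and tumour-free hindbrain (HB, 4 libraries) of athymic nu/nu mice, which the labels also list with the cell line. The labels do not say which libraries came from the same animal or whether animals were pooled, so p-values measure the spread between these libraries.

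The forebrain holds the cortex, striatum and thalamus, and the hindbrain holds the cerebellum, pons and medulla. Their neurons, glia and vessels differ, so metastases in each grow beside different neighbours. Carcinoma cells in brain are known to lean on vessel walls and on contacts with astrocytes. Inflamed epithelial cells are known to secrete acute-phase and antimicrobial proteins, among them haptoglobin, calprotectin and protease inhibitors.

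Reads assigned to human genes numbered 4176351, 4563040 and 3647914 in FBMet replicates 1 to 3, and 6897852, 4257889 and 3579907 in HBMet replicates 1 to 3, next to 52358082 to 86139353 mouse reads. Because the tissue was sampled in bulk, fewer cells of a type and less RNA per cell cannot be told apart. Human reads made up 6.24 ± 1.23% of the library in FBMet and 6.81 ± 1.14% in HBMet (SD, n = 3 each). The difference of -0.573 percentage points did not pass an exact permutation test (two-sided p = 0.5, smallest possible 0.1). It was negative in 3 of 3 pairs of equal replicate number (exact paired permutation p = 0.25, the smallest possible) and turned to 0.132 without FBMet replicate 3. At the rates of human reads per mouse read in tumour-free brain, mouse RNA would give 0.335% of the human reads of FBMet and 0.283% of those of HBMet. In a principal component analysis of the tested genes, the first component (26.3% of variance) ran from -25.0 to -4.76 in FBMet and from 10.1 to 20.6 in HBMet. The second (22.9%) was nearly as large and set replicate 3 of FBMet (-16.9) and of HBMet (-21.4) apart from the other libraries (0.628 to 20.5). The third held 19.8%.

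All levels below are RPKM, the authors' read counts scaled for gene length and library size, rescaled to a sum of 1000000 per library, and all fold changes come from log2(value + 1), which understates the change of low genes. A gene was called when its adjusted p in limma's moderated test was under 0.05. Of 13455 genes tested, 39 were called (0.29%), 20 higher in FBMet (0.149%) and 19 lower (0.141%). The groups did not overlap in any of the 39, as in 16.3% of all genes tested. In all, 1471 genes (10.9%) had an unadjusted p under 0.05, 5.95% of genes higher in FBMet and 4.99% lower. The median log2 change of all tested genes was 0.02, and 22 of the calls were changes of at least 2-fold.

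Calls lower in FBMet included 6 acute-phase and mucosal defence genes, and calls higher in FBMet included the genes of periostin (POSTN), fibronectin (FN1) and the Wnt feedback scaffold AXIN2. Of the 39 calls, 4 had at least 10% of their human reads expected from mouse RNA, and 4 others rested on fewer than 10 reads in a library of the higher region. The other 31 comprised 14 higher and 17 lower in FBMet. With replicate number as a block, 49 genes were called (0.364%), 32 higher (0.238%) and 17 lower (0.126%), and 31 of the 39 calls were kept. In fits that left out 1 library, calls numbered 18, 9 and 55 without FBMet replicates 1, 2 and 3, and 9, 30 and 57 without HBMet replicates 1, 2 and 3. ARHGEF33, PSD, HP, POSTN, CCL2, S100A8 and S100A9 were called in all 6 of those fits. Among these, ARHGEF33 and PSD belong to the 4 calls with at least 10% of human reads expected from mouse RNA.

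**Figure D1:**
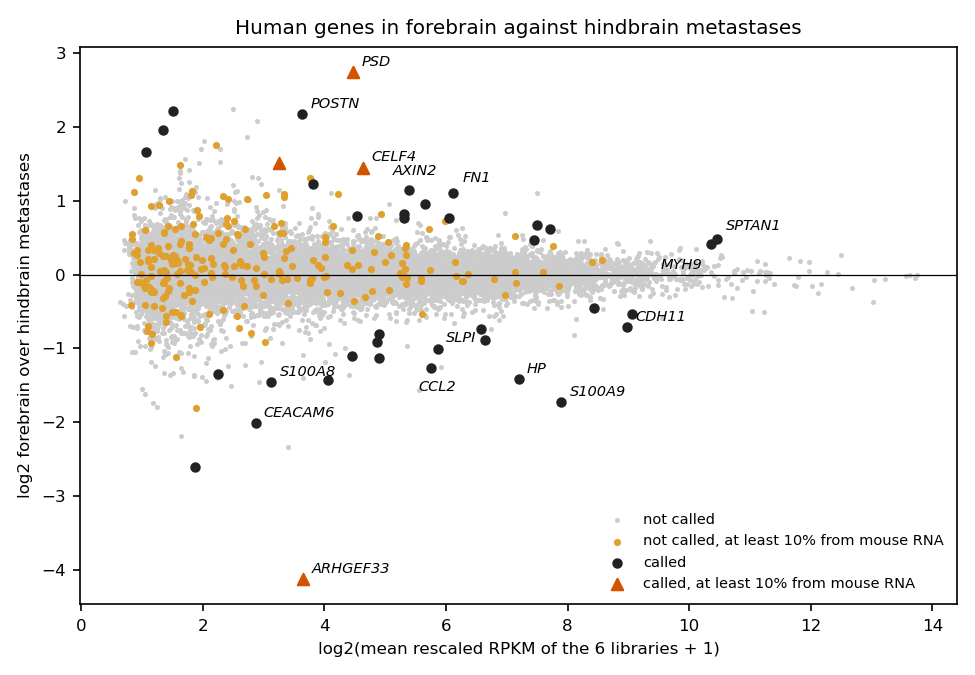
Log2 fold change of FBMet over HBMet (vertical axis) against log2(mean rescaled RPKM of the 6 libraries + 1) (horizontal axis), 1 point per tested human gene. Black circles are calls, orange circles are uncalled genes with at least 10% of reads expected from mouse RNA, triangles are calls with at least 10% of reads expected from mouse RNA, and HP, S100A9, POSTN, AXIN2 and FN1 lie apart from the grey mass of other uncalled genes. The black circles at the far left are calls from a few reads per library.

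The acute-phase and mucosal defence list was lower in FBMet in 6 of its 8 tested members and higher in none by the test, against 0.141% of all genes tested that were called lower. This list and those below were chosen with earlier results of these data known. Their shares and medians are therefore descriptions and not independent support. The called genes were HP, S100A8, S100A9, SLPI, CEACAM6 and CEACAM1, at 2.01-fold to 4.05-fold lower levels in forebrain metastases. The median log2 change of the 8 members was -1.38, against 0.02 over all genes tested. Groups did not overlap in 7 members lower in FBMet, against 6.85% of all genes tested, and in 1 member higher in FBMet, against 9.46%.

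HP (ENSG00000257017.8, chromosome 16, 72054505 to 72061055 on GRCh38) encodes haptoglobin, the plasma protein that binds free haemoglobin and a classical acute-phase reactant of liver and airway. Its levels were 79.6, 70.5 and 86.9 in FBMet and 194, 238 and 205 in HBMet. Each HBMet library stood above each FBMet library by a wide margin, and HP was 2.66-fold lower in FBMet (log2 -1.41 ± 0.10 SE, adjusted p = 0.00018). It rested on 1123 human reads in FBMet and 3575 in HBMet. Mouse Hp had 21 and 94 reads in the same libraries, and no human HP read was found in tumour-free brain. The near-identical paralogue HPR had 1 read in FBMet and 3 in HBMet.

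S100A9 (ENSG00000163220.10, chromosome 1, 153357854 to 153361023) and S100A8 (ENSG00000143546.9, chromosome 1, 153390032 to 153391073) encode the subunits of calprotectin, an antimicrobial protein that binds calcium and zinc. S100A9 stood at 124, 81.3 and 125 in FBMet and at 423, 353 and 314 in HBMet. S100A8 stood at 3.87, 3.16 and 3.93 in FBMet and at 11.1, 12.6 and 11.6 in HBMet. Neither gene overlapped between regions. S100A9 was 3.31-fold lower in FBMet (log2 -1.73 ± 0.17 SE, adjusted p = 0.00726), and S100A8 was 2.75-fold lower (log2 -1.46 ± 0.16 SE, adjusted p = 0.00597). S100A8 rested on only 25 reads in FBMet and 96 in HBMet, and S100A9 on 827 and 3417. Without the trend and robust spread the S100A9 call was lost (0.0853).

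Mouse S100a8 and S100a9, which neutrophils express at high levels, also stood lower in FBMet, at 2.54 ± 1.71 and 2.50 ± 1.47 against 5.98 ± 4.45 and 8.61 ± 6.69 in HBMet. Mouse reads were 190 in FBMet and 668 in HBMet for S100a9, fewer than the human ones, and 185 and 444 for S100a8, more than the human ones. In tumour-free hindbrain, mouse S100a8 stood at 4.31 ± 2.19 (SD, n = 4) with 0 human S100A8 reads, and S100a9 at 5.55 ± 2.98 with 1 human S100A9 read. In a fit with mouse reads subtracted at the tumour-free rate, the adjusted p of S100A8 was 0.00728. With 0 human S100A8 reads in tumour-free brain, that subtraction took no S100A8 read away. The part of mouse RNA in the S100A8 result was not tested further.

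SLPI (ENSG00000124107.5, chromosome 20, 45252239 to 45254564) encodes secretory leukocyte protease inhibitor, which protects mucosa from neutrophil elastase. It stood at 40.3, 34.7 and 37.5 in FBMet and at 81.3, 62.5 and 86.8 in HBMet, and was 2.01-fold lower in FBMet (adjusted p = 0.00882). CEACAM6 (chromosome 19, 41750977 to 41772211) and CEACAM1 (chromosome 19, 42507304 to 42561234) encode adhesion glycoproteins of the carcinoembryonic antigen family on epithelial surfaces. CEACAM6 stood at 2.34, 0.884 and 2.36 in FBMet, against 15.7, 7.01 and 9.48 in HBMet, a 4.05-fold lower level (log2 -2.02 ± 0.31 SE, adjusted p = 0.0268) on 39 and 301 reads. CEACAM1 stood at 2.39, 1.61 and 1.09 in FBMet and at 6.03, 5.15 and 6.13 in HBMet, a 2.56-fold lower level (adjusted p = 0.0456) on 32 and 129 reads. The CEACAM1 call was lost with the replicate block (adjusted p = 0.0561).

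Leaving out 1 library removed some of these calls. SLPI was lost without FBMet replicate 2 (adjusted p = 0.0808) or HBMet replicate 1 (0.0871). CEACAM6 was lost without FBMet replicate 1 (0.0635), FBMet replicate 2 (0.121), HBMet replicate 1 (0.151) or HBMet replicate 3 (0.0539). CEACAM1 was lost without any 1 of the 6 libraries (0.0578 to 0.219). Over all alternatives the adjusted p was 6.45e-07 to 0.146 for SLPI, 3.04e-08 to 0.185 for CEACAM6 and 0.000271 to 0.219 for CEACAM1. The paralogue CEACAM5 had 1 and 5 reads, and CEACAM7 had 0 in both regions.

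The other tested members were PI3, the elastase inhibitor elafin, at 1.56 ± 0.226 in FBMet and 3.97 ± 0.908 in HBMet (log2 -0.94, adjusted p = 0.172), and the complement gene C3, at 9.95 ± 1.71 and 5.76 ± 1.81 (log2 0.72, adjusted p = 0.265). C3, another acute-phase gene, was thus the only tested member with a positive log2 change, and its groups did not overlap either. LCN2, CEACAM5, SAA1, SAA2, BPIFB1 and WFDC2 were too low to be tested.

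The 250 bases upstream of the annotated start are shown for S100A8 and S100A9, the calprotectin pair, each of which holds a match to TTNNGNAA, a C/EBP-type motif read on both strands. C/EBP factors are known activators of acute-phase genes in liver. Sequences are from GRCh38 with GENCODE 44 starts, run 5′ to 3′ on the strand of the gene, and end 1 base before the start; capitals mark the match. The windows are chr1:153391074-153391323 (minus strand) for S100A8 and chr1:153357604-153357853 (plus strand) for S100A9.
S100A8: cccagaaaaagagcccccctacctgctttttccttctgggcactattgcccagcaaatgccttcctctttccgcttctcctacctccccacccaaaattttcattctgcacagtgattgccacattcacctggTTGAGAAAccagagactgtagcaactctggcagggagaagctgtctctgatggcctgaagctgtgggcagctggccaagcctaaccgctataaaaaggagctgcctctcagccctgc
S100A9: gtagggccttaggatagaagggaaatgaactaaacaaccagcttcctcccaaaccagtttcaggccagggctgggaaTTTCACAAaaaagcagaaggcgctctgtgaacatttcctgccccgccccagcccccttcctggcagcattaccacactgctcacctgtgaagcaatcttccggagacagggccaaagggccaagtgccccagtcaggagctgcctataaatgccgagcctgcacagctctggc
The match begins 117 bases before the start in S100A8 and 173 in S100A9. CEACAM6 held 2 matches in a window that overlaps an exon and is not printed, and CEACAM1 held none. Over all calls with a window, TTNNGNAA matched 3 of 14 higher in FBMet and 7 of 16 lower, against 26.3% of 20033 promoters of the same length. The same windows were searched on both strands for CTTTGA (TCF/LEF-type; 0 of 14 higher, 1 of 16 lower, 9.11% of promoters), TTCNNNGAA (STAT-type; 1, 1 and 5.67%), TGANTCA (AP-1; 1, 1 and 4.74%), GGAATG (TEAD-type; 1, 3 and 9.87%) and the NF-kB motif (0, 0 and 5.89%). The motifs were chosen after the calls had been seen, and a match is a description of letters only.

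Levels of the defence genes outside the brain did not follow a single order. HP averaged 29.4 ± 8.92 in SQ (n = 4) and 3.71 ± 0.14 in 2D (n = 3), below both metastasis groups. S100A9 averaged 299 ± 56.1 in SQ and 62.6 ± 3.77 in 2D, so the FBMet libraries lay between those groups and HBMet lay near SQ. S100A8 averaged 40.9 ± 8.65 in SQ and 1.99 ± 0.233 in 2D. SLPI stood at 276 ± 60.7 in SQ and 193 ± 10.6 in 2D, above all 6 metastasis libraries. CEACAM6 was at 1.24 ± 0.473 in SQ and 0.0857 ± 0.0501 in 2D, and CEACAM1 at 18.0 ± 0.933 and 15.0 ± 0.796. These levels are given side by side and were not tested against the metastases here; the SQ and 2D libraries held many more human reads.

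**Figure D2:**
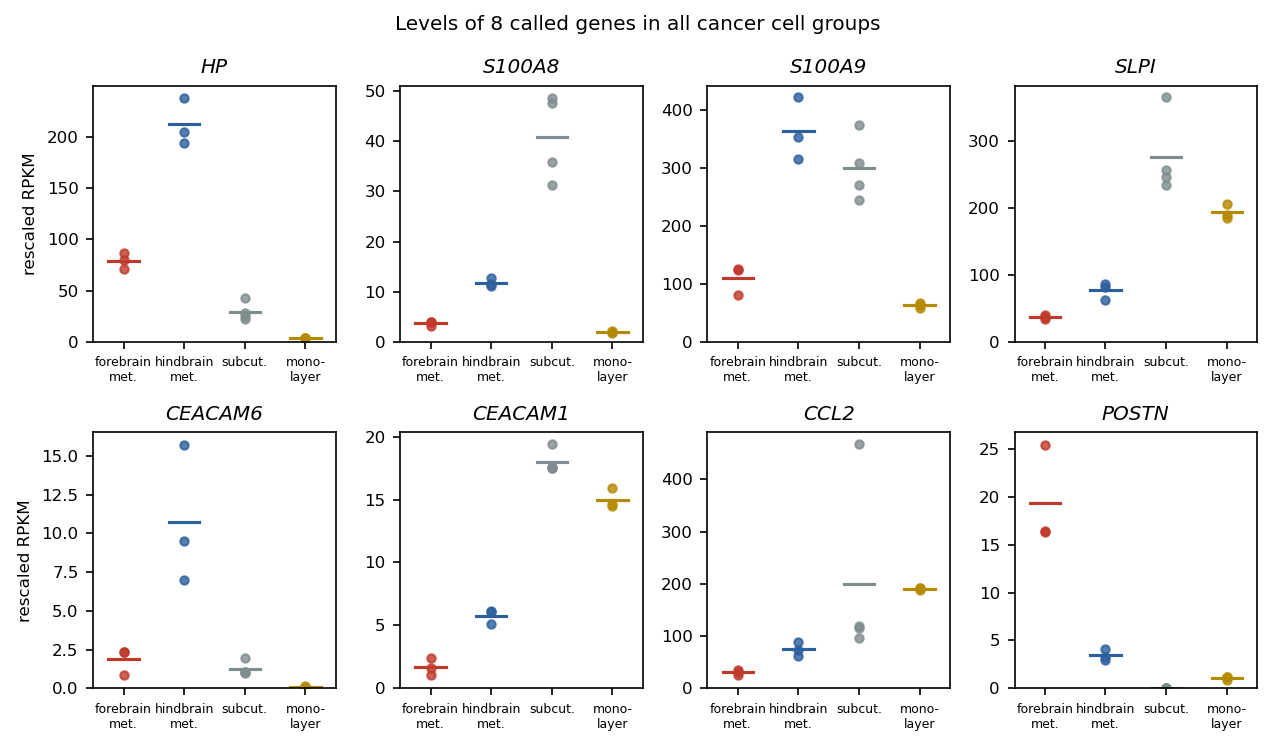
Rescaled RPKM (linear axes from 0) of 8 called genes in FBMet (n = 3), HBMet (n = 3), subcutaneous tumours (n = 4) and monolayer culture (n = 3), with 1 point per library and a line at each mean. HP was highest in HBMet, POSTN was highest in FBMet, and SLPI and CEACAM1 were lower in both metastasis groups than outside the brain. The high CCL2 point in subcutaneous tumours is replicate 2 at 468.

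Among 8 tested inflammatory cytokine genes, CCL2 was called and the others were not, against 0.141% of all genes tested that were called lower. CCL2 (ENSG00000108691.9, chromosome 17, 34255274 to 34257208) encodes the chemokine that draws monocytes and macrophages through CCR2. It stood at 34.5, 30.7 and 26.4 in FBMet and at 73.4, 89.0 and 62.8 in HBMet, a 2.40-fold lower level (log2 -1.26 ± 0.14 SE, adjusted p = 0.00597). Human reads were 351 in FBMet and 1027 in HBMet, and mouse Ccl2 had 117 and 150. The call was lost in the fit that shared its spread with SQ and 2D (adjusted p = 0.161; 1.35e-10 to 0.161 over all alternatives), where SQ replicate 2 stood far above the other SQ libraries, and without the trend and robust spread (0.128). CXCL8, the neutrophil chemokine interleukin 8, was at 35.3 ± 13.8 in FBMet and 83.3 ± 23.2 in HBMet without overlap, and did not pass (log2 -1.25, adjusted p = 0.214). IL6 (7.58 ± 1.31 against 9.70 ± 1.40), LIF (9.30 ± 0.892 against 12.1 ± 3.22) and CXCL1 (4.24 ± 1.11 against 6.88 ± 5.96) had adjusted p values of 0.537, 0.569 and 0.832. The median log2 change of the 8 genes was -0.32.

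In the opposite direction, the matrix genes POSTN, FN1 and LTBP1 rose in FBMet. POSTN (ENSG00000133110.14, chromosome 13, 37562583 to 37598844) encodes periostin, a secreted matricellular protein of fibroblasts and of carcinoma cells that invade or metastasise. It stood at 16.3, 25.4 and 16.5 in FBMet and at 4.07, 3.28 and 2.97 in HBMet, a 4.53-fold higher level in FBMet (log2 2.18 ± 0.20 SE, adjusted p = 0.00115). The lowest FBMet library was well above the highest HBMet library. Human reads were 803 in FBMet and 174 in HBMet with 0 in tumour-free brain, while mouse Postn had 1315 and 793 reads. Outside the brain POSTN averaged 0.0385 ± 0.0238 in SQ and 1.06 ± 0.195 in 2D.

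FN1 (ENSG00000115414.18, chromosome 2, 215360440 to 215436073) encodes fibronectin, the main ligand of integrin alpha 5 beta 1. It stood at 77.2, 116 and 87.6 in FBMet and at 43.5, 40.8 and 42.5 in HBMet, 2.16-fold higher in FBMet (log2 1.11 ± 0.14 SE, adjusted p = 0.00742). The HBMet libraries lay close together and the FBMet libraries spread more. The call was lost without HBMet replicate 1 (adjusted p = 0.0669; 2.14e-08 to 0.146 over all alternatives). LTBP1, which holds latent TGF-beta in the matrix, averaged 222 ± 32.5 in FBMet and 137 ± 4.06 in HBMet (1.60-fold higher, adjusted p = 0.0268).

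POSTN and FN1 were the only 2 called of 13 tested genes of the mesenchymal list, against 0.149% of all genes tested that were called higher. The list's median log2 change was 0.19, against 0.02 over all genes tested. VIM, the vimentin filament gene, averaged 785 ± 50.0 in FBMet and 639 ± 38.1 in HBMet without overlap and did not pass (log2 0.30, adjusted p = 0.179). It passed in the 13-library fit (0.0331) and by voom with the replicate block (0.0176; 0.0176 to 0.46 over all alternatives). The actin-binding gene TAGLN averaged 20.1 ± 4.12 and 12.9 ± 2.34 (adjusted p = 0.257). The regulators of epithelial-mesenchymal transition ZEB1 (17.2 ± 2.64 against 16.2 ± 1.08, adjusted p = 0.895) and TWIST1 (42.7 ± 3.495 against 39.6 ± 2.49, adjusted p = 0.792) differed by less than their spread. Of 20 tested collagen and basement membrane genes none was called. COL1A2 was low and uneven (5.46 ± 4.17 in FBMet, 0.655 ± 0.563 in HBMet, adjusted p = 0.184).

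Of 9 tested Wnt feedback genes, AXIN2 was called and 7 had positive log2 changes, against 54% of all genes tested, with a median of 0.29. Over all genes tested, 0.149% were called higher. AXIN2 (ENSG00000168646.12, chromosome 17, 65528563 to 65561648) is a direct target of beta-catenin and encodes a scaffold that promotes beta-catenin breakdown. It stood at 56.7, 66.9 and 47.3 in FBMet and at 24.7, 28.3 and 21.8 in HBMet, 2.22-fold higher in FBMet (log2 1.15 ± 0.14 SE, adjusted p = 0.00745). Groups did not overlap, and levels outside the brain were 3.51 ± 0.412 in SQ and 5.11 ± 0.252 in 2D. The call was lost without FBMet replicate 2 (adjusted p = 0.0553) or HBMet replicate 1 (0.0769), with no filter on low values (0.0504) and without the trend and robust spread (0.146; 1.04e-09 to 0.146 over all alternatives).

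NOTUM, a secreted lipase that inactivates Wnt ligands, averaged 56.6 ± 9.61 in FBMet and 34.5 ± 5.99 in HBMet (log2 0.70, adjusted p = 0.121) and passed with the replicate block (0.027). NKD1, an intracellular Wnt inhibitor, averaged 22.0 ± 3.09 and 10.3 ± 4.86 (log2 1.11, adjusted p = 0.194). Groups of AXIN2, NOTUM and NKD1 did not overlap, against 9.46% of all genes tested that were higher in FBMet without overlap. LEF1 and TCF7, the nuclear partners of beta-catenin, had log2 changes of 0.29 and 0.19 (adjusted p = 0.739 and 0.623). DKK1, a secreted Wnt antagonist, was at 135 ± 10.9 in FBMet and 158 ± 28.0 in HBMet (adjusted p = 0.55). TCF4, called higher in FBMet at 49.4 ± 2.60 against 27.7 ± 4.34 (1.77-fold, adjusted p = 0.0268), is the E-box factor on chromosome 18 (ENSG00000196628.13), not the Wnt factor TCF7L2 that shares this alias.

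Further single genes rose in FBMet, and no list covers them as a group. NCAM1, the neural cell adhesion molecule, stood at 46.2, 56.5 and 43.9 in FBMet and at 27.9, 32.2 and 24.5 in HBMet (1.71-fold, adjusted p = 0.0456). MAP1B, a microtubule-associated protein of growing axons, stood at 85.1, 81.8 and 78.8 in FBMet and at 46.6, 55.1 and 42.6 in HBMet (1.70-fold, adjusted p = 0.0194). MYO10, the motor that travels to filopodial tips, stood at 72.7, 69.7 and 53.6 in FBMet and at 32.5, 39.0 and 27.9 in HBMet (1.94-fold, adjusted p = 0.0268). None of these 3 genes overlapped between regions. Mouse RNA would give at most 0.776% of the human reads of NCAM1, MAP1B or MYO10 in either region.

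Smaller changes were found in abundant structural genes. SPTAN1, the non-erythroid alpha spectrin gene, averaged 1646 ± 146 in FBMet and 1172 ± 38.7 in HBMet (1.40-fold, adjusted p = 0.027), and MYH9, non-muscle myosin heavy chain, averaged 1501 ± 23.5 and 1124 ± 60.003 (1.34-fold, adjusted p = 0.0268). NOTCH3, a Notch receptor, averaged 253 ± 30.3 in FBMet and 164 ± 12.7 in HBMet (1.54-fold, adjusted p = 0.0286). TNFRSF19, a receptor of the TNF family also called TROY, averaged 28.4 ± 0.40 and 15.99 ± 1.52 (1.73-fold, adjusted p = 0.0268). SH3GL3, an endophilin of membrane uptake, averaged 18.7 ± 4.30 and 7.46 ± 1.95 (2.33-fold, adjusted p = 0.0404). RHOBTB3, a GTPase-related gene, averaged 201 ± 2.63 and 145 ± 5.51 (1.38-fold, adjusted p = 0.0268; 0.0513 with the replicate block).

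Each of these calls was lost in at least 3 of the 6 fits that left out 1 library. With FBMet replicate 2 left out, the adjusted p was 0.219 for NCAM1, 0.121 for MAP1B, 0.165 for MYO10, 0.163 for SPTAN1, 0.141 for NOTCH3 and TNFRSF19, 0.219 for SH3GL3, 0.158 for LTBP1 and 0.151 for TCF4. With HBMet replicate 1 left out, it was 0.197 for NCAM1 and SH3GL3, 0.124 for MAP1B, 0.153 for MYO10, 0.151 for SPTAN1 and TCF4, 0.16 for NOTCH3 and LTBP1, and 0.079 for TNFRSF19. Without FBMet replicate 1, it was 0.0852 to 0.125 for the same 9 genes. Several were also lost without HBMet replicate 2 (LTBP1 and SPTAN1, 0.0787; NOTCH3, 0.0739; TNFRSF19, 0.0709) or HBMet replicate 3 (NCAM1, 0.0949; SH3GL3, 0.0878; LTBP1, 0.0604; SPTAN1, 0.0575; MYO10, 0.0539). MYH9 and RHOBTB3 were kept only without HBMet replicate 3 (0.0232 and 0.0347) and otherwise had adjusted p values of 0.0709 to 0.148 and 0.06 to 0.151.

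Further genes fell in FBMet outside the defence list. CDH11, a type II cadherin of mesenchymal cells, was among the most abundant calls, at 343, 373 and 437 in FBMet and 643, 607 and 629.7 in HBMet (1.64-fold lower, adjusted p = 0.00745). SRGN, the proteoglycan serglycin of secretory granules, averaged 435 ± 48.3 and 629 ± 32.7 (1.45-fold lower, adjusted p = 0.0404). CA2, carbonic anhydrase II, averaged 69.4 ± 12.3 and 129 ± 17.6 (1.85-fold lower, adjusted p = 0.0268; 0.0764 with the block). The carboxypeptidase gene CPA4 averaged 70.0 ± 7.24 and 118 ± 17.2 (1.67-fold lower, adjusted p = 0.0292; 0.0556 with the block). CDH11 was lost without FBMet replicate 2 (0.0801) or HBMet replicate 1 (0.0769). SRGN, CA2 and CPA4 were each lost without FBMet replicates 1 or 2 or HBMet replicates 1 or 2 (0.086 to 0.195). These 4 genes, with MGST3, ST3GAL1, MYH9 and RHOBTB3, lie outside the rule for naming genes and are named after their values were seen, so that all calls with at least 10 reads per library of the higher region are given.

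MGST3, a microsomal glutathione transferase, averaged 292 ± 14.9 in FBMet and 398 ± 22.1 in HBMet (1.36-fold lower, adjusted p = 0.0404). The sialyltransferase gene ST3GAL1 averaged 20.6 ± 2.75 and 36.9 ± 4.91 (1.75-fold lower, adjusted p = 0.0419). ST3GAL1 was lost without FBMet replicates 1 or 2 or HBMet replicates 1 or 2 (0.0949 to 0.201), and MGST3 also without FBMet replicate 3 (0.0752 to 0.208). FAM84B, now named LRATD2, averaged 19.3 ± 1.37 and 37.2 ± 2.17 (1.88-fold lower, adjusted p = 0.00742), lost without FBMet replicate 2 (0.0553) or HBMet replicate 1 (0.0769). The unnamed transcript AC003092.1 on chromosome 7 averaged 13.1 ± 3.20 and 28.7 ± 2.79 (2.15-fold lower, adjusted p = 0.0268), lost without FBMet replicate 2 (0.105) or HBMet replicates 1, 2 or 3 (0.146, 0.0787 and 0.0668).

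Some calls with under 10% of reads expected from mouse RNA rose in FBMet together with the mouse copy. Mouse values in FBMet and HBMet were 36.2 and 13.8 for TNFRSF19, 4.98 and 2.27 for LTBP1, 525 and 359 for TCF4, and 34.0 and 25.2 for AXIN2. Mouse RNA would give 4.53 and 3.85% of the human TCF4 reads. Human MAP1B and RHOBTB3 rose while the mouse copy stood lower (174 and 215, 33.0 and 49.4). These directions were not tested. In NPAS2 and CAMK2N1 the human gene was lower in FBMet while the mouse copy stood higher there, as it also did in CDH11 (mouse 17.8 ± 2.15 in FBMet and 9.03 ± 0.81 in HBMet). NPAS2, a paralogue of CLOCK that pairs with BMAL1, stood at 6.47, 8.03 and 8.89 in FBMet and at 28.2, 28.2 and 14.4 in HBMet (2.70-fold lower, adjusted p = 0.0449). Mouse Npas2 in the same libraries averaged 157 ± 17.1 in FBMet and 17.9 ± 1.44 in HBMet. CAMK2N1, an inhibitor of the kinase CaMKII, stood at 12.7, 20.9 and 19.8 in FBMet and at 47.3, 40.2 and 32.0 in HBMet (2.19-fold lower, adjusted p = 0.0456). Mouse Camk2n1 averaged 688 ± 38.4 in FBMet and 112 ± 5.98 in HBMet.

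Mouse RNA would give 0 of the human NPAS2 reads in both regions and 0.666 and 0.225% of the CAMK2N1 reads in FBMet and HBMet. Both calls were lost with the replicate block (adjusted p = 0.0742 for NPAS2 and 0.105 for CAMK2N1). They were also lost without each of FBMet replicates 1, 2 and 3 (0.17, 0.219 and 0.0752 for NPAS2; 0.0957, 0.121 and 0.0677 for CAMK2N1) and without HBMet replicates 1 or 2 (0.199 and 0.124; 0.212 and 0.134). NPAS2 was the only call among 12 tested circadian clock genes, whose median log2 change was 0.04. CLOCK (98.6 ± 8.69 against 104 ± 5.16) and ARNTL, the gene of BMAL1 (20.8 ± 2.11 against 19.9 ± 1.01), had adjusted p values of 0.818 and 0.911.

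**Figure D3:**
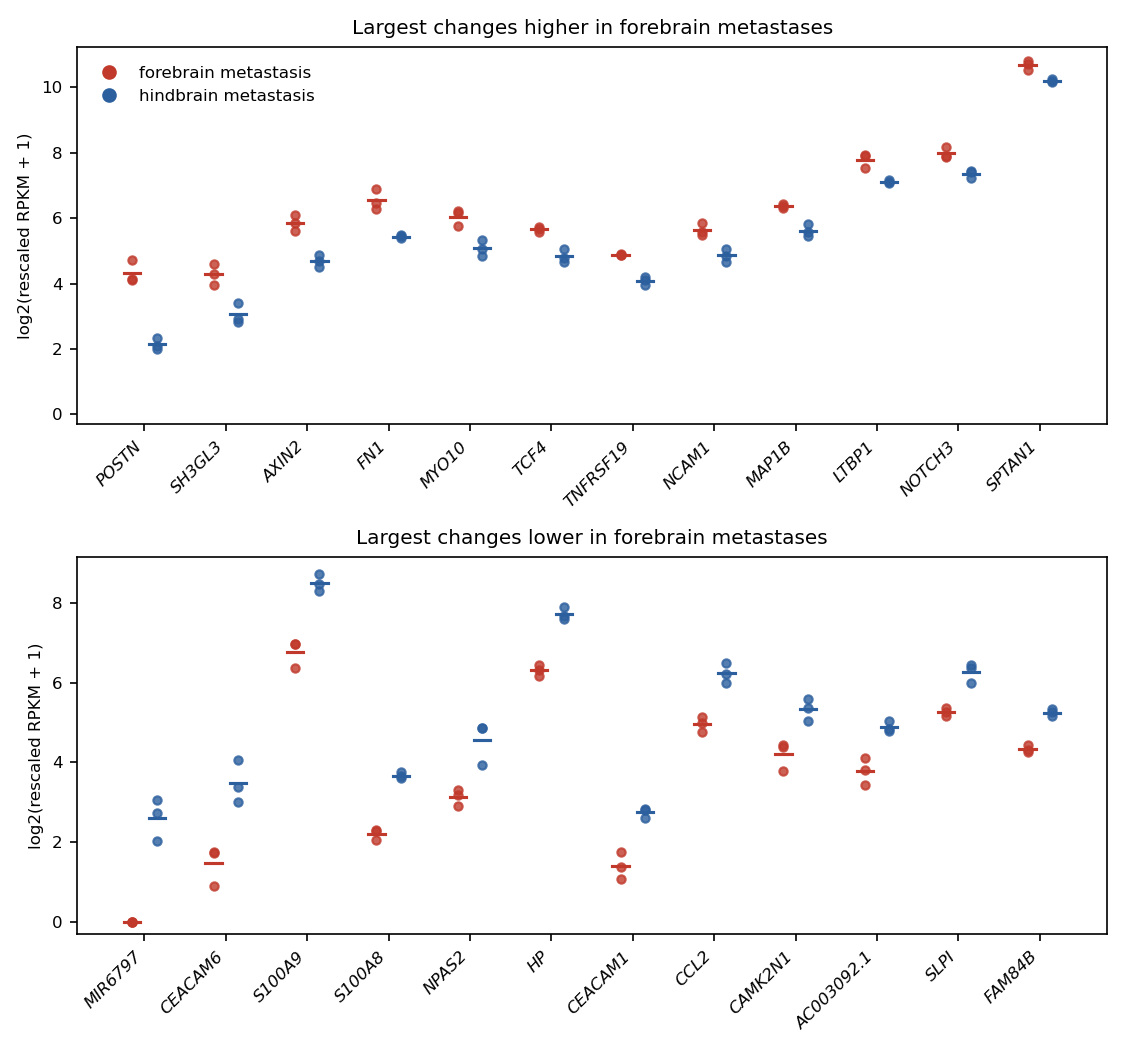
log2(rescaled RPKM + 1) in each FBMet (left, red) and HBMet (right, blue) library for the 12 largest called changes in each direction that have no mouse-RNA flag and average 5 or more where they are higher, with a line at each mean. No gene overlaps between regions, and among the genes shown the changes are largest in POSTN (log2 2.18) and CEACAM6 (-2.02) apart from MIR6797, which rests on 6 reads in HBMet and 0 in FBMet.

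Calls that rested on few reads were 3 small RNA genes higher in FBMet and 1 microRNA gene lower. They are named after their values were seen, apart from MIR6797. SNORA51 had 6 reads in FBMet and 0 in HBMet, Y_RNA had 4 and 0, and RNU6-100P had 3 and 0. MIR6797 had 0 reads in FBMet and 6 in HBMet. Their length-scaled values are large because the genes are short, and no fold is given. None of the 4 was tested once at least 10 reads in at least 3 libraries were required, and voom on the reads gave adjusted p values of 0.176 to 0.447. Y_RNA and RNU6-100P were also lost with the replicate block (0.0515 and 0.0752).

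Genes whose human values could come from mouse RNA were marked by comparing them with tumour-free brain. A gene was flagged when the human reads expected at the tumour-free rate were at least 10% of those seen in either region. This held for 241 of the 13455 tested genes and for 4 of the 39 calls. These were PSD, SEPT3 and CELF4, higher in FBMet, and ARHGEF33, lower in FBMet.

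PSD, an exchange factor of neuronal endosomes, stood at 27.7, 38.6 and 47.2 in FBMet and at 4.00, 5.62 and 4.56 in HBMet (6.68-fold higher, adjusted p = 0.000176). Mouse RNA would give 123% of its human reads in FBMet and 108% in HBMet. Mouse Psd averaged 128 ± 15.7 in FBMet and 29.1 ± 4.84 in HBMet. SQ and 2D held 2.29 ± 0.206 and 1.04 ± 0.15. After subtraction of the expected reads PSD was too low to be tested.

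CELF4, a neuronal RNA-binding protein, averaged 35.3 ± 8.52 in FBMet and 12.2 ± 2.54 in HBMet (2.73-fold higher, adjusted p = 0.00895). Expected reads were 91.5% in FBMet and 144% in HBMet, and the call was lost after subtraction (adjusted p = 0.0931). SEPT3, a neuronal septin now named SEPTIN3, averaged 13.2 ± 4.20 and 3.93 ± 0.964 (2.85-fold higher, adjusted p = 0.0268). Expected reads were 97.8 and 73.1%, and its log2 change turned to -0.57 after subtraction (adjusted p = 0.678). SQ and 2D held 3.11 ± 0.299 and 7.65 ± 0.144 of SEPT3. CELF4 was lost without FBMet replicate 2 (0.0801) or HBMet replicate 1 (0.079), and SEPT3 without FBMet replicate 2 (0.121), HBMet replicate 1 (0.151) or HBMet replicate 2 (0.0787).

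ARHGEF33, a guanine nucleotide exchange factor gene, was the largest change in either direction. It stood at 0, 0.683 and 0.426 in FBMet on 3 reads in all, and at 16.3, 24.8 and 27.4 in HBMet on 204 reads (log2 -4.12, adjusted p = 9.48e-05). Mouse Arhgef33 averaged 0.58 ± 0.0390 in FBMet and 45.4 ± 5.11 in HBMet, and 0.607 ± 0.0288 in FB and 36.7 ± 15.5 in HB. Mouse RNA would give 53.4% of its human reads in HBMet. The call held after subtraction (adjusted p = 0.00728), while SQ and 2D stood at 0.58 ± 0.30 and 0.187 ± 0.0286.

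Over the 192 flagged genes with a mouse gene of the same symbol, the human change between metastases correlated with the mouse change between tumour-free regions (Pearson r = 0.486, Spearman rank correlation 0.398). Of 39 flagged genes whose mouse copy differed at least 2-fold between regions, 26 had the same sign in human values (66.7%). Over 10303 genes without a flag, Pearson r was -0.0257 and the rank correlation -0.0255, and 252 of 528 had the same sign (47.7%). These are descriptions across genes, which share libraries and are not replicates.

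**Figure D4:**
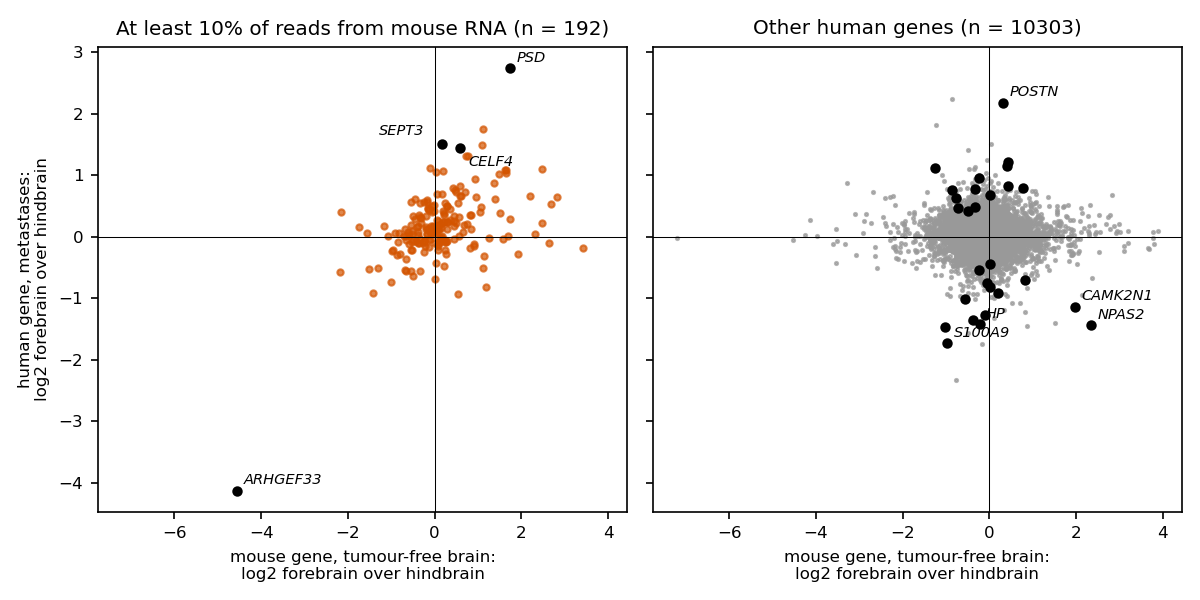
Log2 change of human genes between FBMet and HBMet (vertical axis) against that of the same-symbol mouse gene between tumour-free forebrain and hindbrain (horizontal axis), for 192 genes with at least 10% of reads expected from mouse RNA (left) and 10303 others (right). Black points are calls; ARHGEF33, PSD, CELF4 and SEPT3 lie in the quadrants of equal direction, while NPAS2 and CAMK2N1 lie in one of opposite direction.

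Host cell lists gave no call in the human table. Their summed levels in FBMet and HBMet overlapped: 799 to 941 against 687 to 851 for the 15 neuronal genes (718 to 760.1 in SQ, which holds no brain tissue), 208 to 267 against 205 to 271 for the 17 forebrain neuron genes, and 95.5 to 113 against 91.1 to 109 for the 16 hindbrain neuron genes. Of the 15 neuronal genes shared by the regions, 10 were tested and 4 of those were flagged for mouse RNA. Log2 changes were positive in 8 of the 10, against 54% of all genes tested. Their median was 0.26 (0.19 without the flagged genes), against 0.02 over all genes tested. Sums also hold genes expressed in SQ, so their overlap does not show that mouse RNA is absent from these lists. The 6 microglia and macrophage genes summed to 0.562 to 0.738 in FBMet and 0.365 to 1.48 in HBMet with AIF1 at 0, and none reached the level for testing. The astrocyte list summed to 644 to 674 in FBMet and 561 to 795 in HBMet, below the 907 to 1316 of SQ. Oligodendrocyte genes summed to 423 to 474 in FBMet and 418 to 449 in HBMet with MAL and SOX10 at 0, and vessel and choroid plexus genes to 18.7 to 23.8 and 19.9 to 23.2 with CLDN5 and FOLR1 at 0.

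No call was made among 10 tested epithelial genes. CDH1, the E-cadherin gene, stood at 69.1, 73.8 and 60.1 in FBMet and at 74.4, 64.6 and 63.6 in HBMet, with a log2 change of 0.00 and a sign that varied with scaling. KRT8, KRT18 and MUC1 averaged 1106 ± 131, 602 ± 52.3 and 121 ± 33.4 in FBMet and 1189 ± 215, 612 ± 101 and 106 ± 16.9 in HBMet. EPCAM averaged 22.2 ± 4.82 and 33.3 ± 8.65 (adjusted p = 0.363), and passed only by voom with the replicate block (0.0117; 0.0117 to 0.696 over all alternatives). All 5 genes were present in all 6 libraries.

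None of 30 tested proliferation genes was called. MKI67, the Ki-67 gene of cycling cells, averaged 71.5 ± 2.89 in FBMet and 68.2 ± 15.1 in HBMet (adjusted p = 0.876), and the list had a median log2 change of -0.04. Among YAP targets, none of 14 was called: TGM2 averaged 701 ± 89.7 and 729 ± 170.5, ANKRD1 15.1 ± 2.59 and 14.7 ± 1.76, and CTGF, now CCN2, 236 ± 16.9 and 208 ± 18.4. THBS1, the thrombospondin-1 gene, averaged 755 ± 88.7 in FBMet and 554 ± 82.3 in HBMet without overlap (log2 0.45, adjusted p = 0.194) and passed with voom on reads (0.0416, and 0.00964 with the block; 0.00964 to 0.457 over all alternatives). L1CAM, an adhesion gene linked to spread along vessels, averaged 71.0 ± 11.1 and 67.3 ± 5.10 (adjusted p = 0.891), and none of the 10 tested brain metastasis mediators was called.

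Cholesterol synthesis genes stood lower in FBMet as a list, but none was called. Of 22 tested, 20 had negative log2 changes, against 46% of all genes tested, and the median was -0.34. Groups did not overlap in 11 that were lower in FBMet, against 6.85% of all genes tested, and 11 had an unadjusted p under 0.05, against 4.99%. FDPS, the farnesyl diphosphate synthase, averaged 189.9 ± 9.45 in FBMet and 242 ± 8.67 in HBMet (log2 -0.35, adjusted p = 0.107, the smallest of the list). SCD, the stearoyl-CoA desaturase of the fatty acid list, averaged 51.0 ± 5.21 and 65.5 ± 9.01 (adjusted p = 0.304), and passed only by voom with the replicate block (0.00465; 0.00465 to 0.635 over all alternatives).

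Several single genes came near the threshold. GDF6, a BMP family ligand, stood at 44.98, 43.3 and 39.9 in FBMet and at 17.3, 30.7 and 18.7 in HBMet (log2 0.95, adjusted p = 0.0789). It passed without HBMet replicate 2 (0.00542) and with genes of at least 10 reads (0.0385; 2.14e-05 to 0.316 over all alternatives). SLC2A1, the glucose transporter GLUT1, averaged 274 ± 34.4 in FBMet and 182 ± 19.0 in HBMet (log2 0.58, adjusted p = 0.0659) and passed without FBMet replicate 1 (0.044) and with genes of at least 10 reads (0.032; 0.000318 to 0.335 over all alternatives). SEMA3E, an axon guidance ligand of plexin D1, averaged 4.71 ± 1.89 and 0.932 ± 0.0912 (log2 1.51, adjusted p = 0.0605). PHGDH, the first enzyme of serine synthesis, averaged 26.8 ± 1.20 and 19.5 ± 6.38 (adjusted p = 0.379), and the other named genes FOS (9.47 ± 3.06 against 15.1 ± 4.39), HLA-B (3.69 ± 0.928 against 4.98 ± 1.96) and ALDH3A1 (72.0 ± 6.86 against 77.2 ± 19.3) had adjusted p values of 0.379, 0.716 and 0.923.

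**Figure D5:**
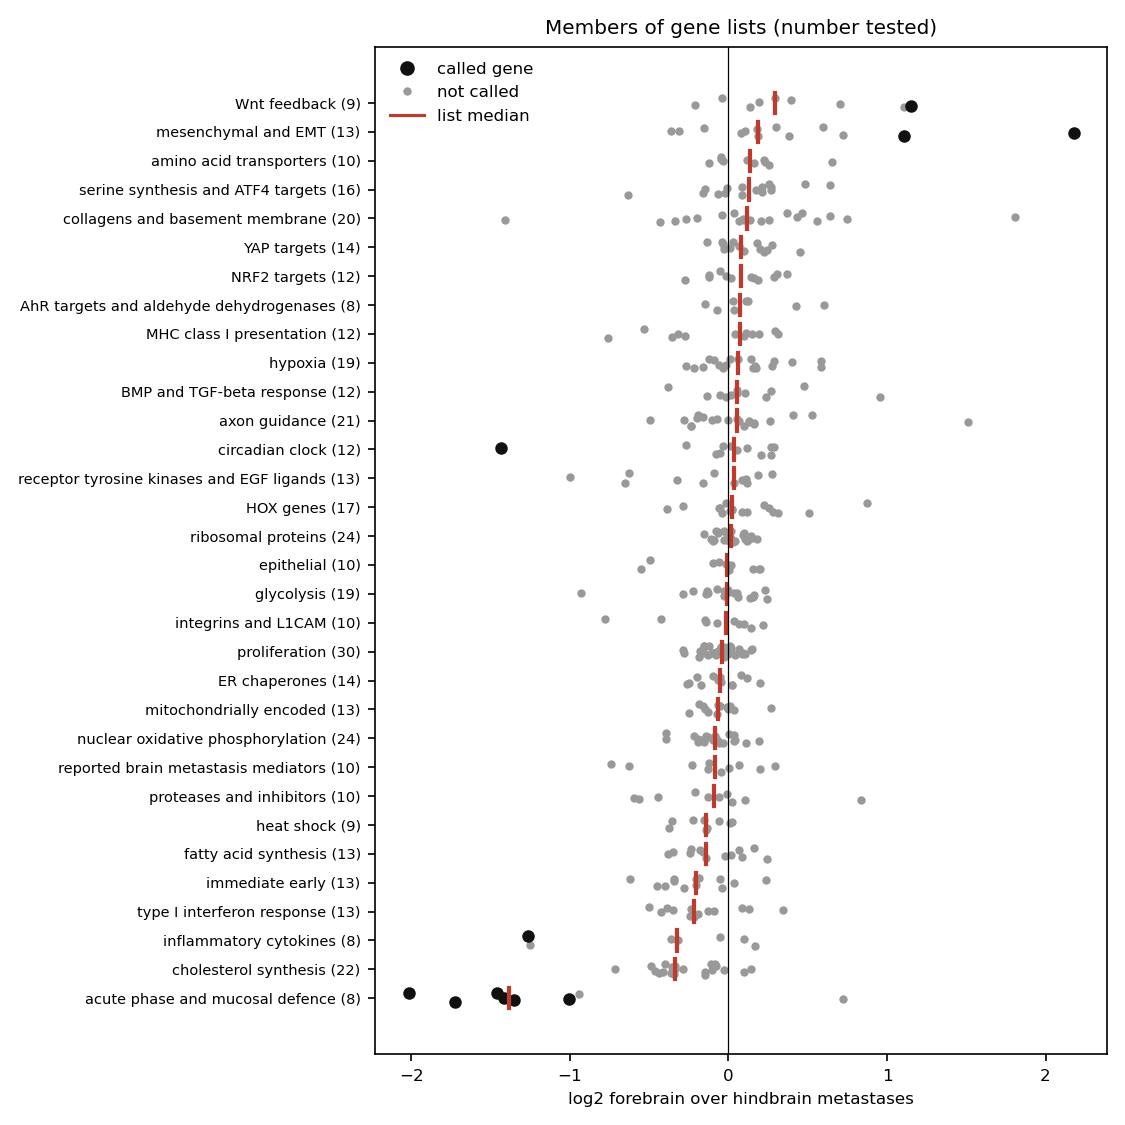
Log2 change of FBMet over HBMet for each tested member of the lists with 8 or more tested genes, ordered by median (red bar). Black points are called genes; the acute-phase and mucosal defence list lies lowest with a median of -1.38, and the Wnt feedback list highest with 0.29.

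With the replicate block, 18 genes were called that had not been without it, 15 higher and 3 lower in FBMet, and 7 of them were flagged for mouse RNA. Examples, chosen after their values were seen, are DPYSL3, an axonal collapsin response mediator (246 ± 40.6 in FBMet, 115 ± 29.4 in HBMet; adjusted p = 0.0619 without and 0.00236 with the block), and SPP1, the gene of osteopontin (1999 ± 278 in FBMet, 2818 ± 120 in HBMet; 0.0626 and 0.0218).

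The spread between libraries of the same region was largest for 8 genes with a mean of at least 20, of which 6 are described. SPNS2, the sphingosine-1-phosphate exporter, ranged from 11.8 to 44.9 in FBMet and from 36.4 to 112 in HBMet (adjusted p = 0.441). SPOCK1, a testican proteoglycan, ranged from 64.8 to 90.0 and from 71.8 to 218 (adjusted p = 0.568), and EPAS1, the gene of HIF-2 alpha, from 12.5 to 26.9 and from 15.1 to 43.0 (adjusted p = 0.662). The heat shock gene DNAJB1 ranged from 229 to 428.5 in FBMet and from 225 to 552 in HBMet, ITGA1, an integrin chain, from 18.6 to 32.4 and from 13.3 to 36.5, and the mitochondrial ribosomal RNA gene MT-RNR1 from 3251 to 4288 and from 1311 to 5991. All of these ranges overlapped between the regions.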

How the data were processed

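RNA-seq libraries of mixed human and mouse tissue were deposited as RPKM per human gene and per mouse gene. The authors made these RPKM values on human builds GRCh38 and hg38 and mouse builds GRCm38 and mm10, per the submitters' processing notes; for the aligner and the counter, nothing is given in the sources used here. RPKM was rescaled to a sum of 1000000 per library. Low RPKM values were whole multiples of 1 read in 100% of the genes above 0 (33975 human, 32644 mouse; tolerance 0.02), which gave the read numbers used for depth, the mouse-RNA comparison and a voom fit. The smallest whole number of reads that fitted every library was taken. A gene above 0 in only 1 library always fits, so the 100% is partly fixed in advance. The reads of such a gene may be too low. Depth was 3579907 to 6897852 human reads per metastasis library. All 21 libraries were mapped by name.

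Genes with at least 1 in at least 3 of the 6 libraries were fitted on log2(value + 1) by limma 3.58.1 with trend and robust spread (R 4.3.3, Benjamini-Hochberg adjustment over 13455 genes), and all adjusted p values are from that test unless another fit is named. Tables were made with Python 3.11.15, pandas 2.3.3, NumPy 2.4.6 and SciPy 1.17.1, figures with matplotlib 3.10.9. The fit was tested on simulated reads with a single dispersion (0.00422) for all genes and no effect of replicate number. It recovered 60.6% of 1.5-fold and 90% of 2-fold changes, and 12 of its 162 calls were false. Spread differs between genes in the real libraries, so these rates need not hold there. Alternatives changed the pseudocount, filter, scaling, spread, libraries, mouse reads and replicate block.

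The genes named were the 12 largest called changes in each direction without a mouse-RNA flag (mean of at least 5 in the higher region, no overlap), a fixed set, up to 4 calls per list, flagged calls, and the 8 most variable genes with a mean of at least 20. Members and lists were chosen with earlier results of these data known. The labels do not say that equal replicate numbers share an animal. Residuals of equal-numbered FBMet and HBMet libraries correlated at 0.222, 0.393 and 0.43 over mouse genes (other pairs at most -0.047), all above the threshold of 0.1, and at 0.0352, 0.0545 and 0.0692 over human genes (other pairs at most 0.0119). Residuals sum to 0 within a region, so positive values at equal numbers push the other pairs down. The correlations cannot tell a shared animal from other handling shared by equal numbers. The numbers were taken as pairing from the mouse genes, but the main fit and its adjusted p values hold no block. Blocked values are given for the 8 calls lost with the block. Of the 18 genes called only with it, they are given for NOTUM, DPYSL3 and SPP1. Some genes and sequences are not reported here.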

Additional observations from a re-analysis of the deposited data

Results flagged for a closer look

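A library standing apart from the others of its group was listed for 5 values, all in groups of 4 libraries. Chance marks about 1 in 20 groups. The list does not show that the metastasis groups, of 3 libraries each, held no such library. S100A9 in FBMet was 81.3 in replicate 2 against 124 and 125 in the others. NPAS2 in HBMet was 14.4 in replicate 3 against 28.2 and 28.2. In SQ, CEACAM6 stood at 1.95 in replicate 3 and at 0.960 to 1.03 in the other libraries. CEACAM1 stood at 19.4 in SQ replicate 1 and at 17.5 to 17.6 in the others. CCL2 stood at 468 in SQ replicate 2 and at 96.3 to 119.85 in the others. CTGF stood at 59.5 in SQ replicate 4 and at 94.2 to 98.3 in the others. Human reads made up 0.0315% of the library in FB replicate 2 and 0.0178 to 0.0198% in the other tumour-free forebrain libraries. Without FB replicate 2, 233 tested genes were flagged for mouse RNA, of which 230 were shared with the 241 flagged with it.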

How the results depend on the processing

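Of the 39 calls (20 higher in FBMet, 19 lower), the count was 10 with no filter on low values (3 and 7; 3 of the defence list), 481 in a fit on 13 libraries (270 and 211; 38 calls kept), 8 without trend or robust spread (4 and 4; 2 of the list), 174 by voom on recovered reads (101 and 73; 35 kept), 323 by voom with the replicate block (173 and 150), 54 with at least 10 reads in at least 3 libraries (31 and 23) and 86 with that filter and the block (52 and 34). The replicate block gave 49 (32 and 17). Leaving out 1 library gave 9 to 57 calls, 3 to 26 higher, 5 to 32 lower and 3 to 5 of the defence list. The read filter, its block, the subtraction with block and the flag without FB replicate 2 were added after seeing the data. The mouse-RNA flag held for 139 genes at 25% of reads and for 4379 by the ratio of mean values. Of the settings tried on the named genes, 956 kept direction and side of the threshold, 139 lost a call, 20 gained one and 25 turned direction. SEPT3 turned to -0.57 with mouse reads subtracted, with or without the block. CDH1 turned to -0.00217 with RPKM as deposited, -0.0188 with median-of-ratios scaling, -0.00604 with the sum over nuclear genes, -0.00107 with library weights, -0.0065 by voom and -0.00216 by voom with the block. Without 1 library, log2 changes were -0.0627 to 0.0837 for CDH1, -0.218 to 0.0386 for KRT8, -0.0219 to 0.189 for ZEB1, -0.0802 to 0.241 for MKI67, -0.236 to 0.110 for TGM2, -0.0646 to 0.167 for ANKRD1, -0.290 to 0.0722 for ALDH3A1 and -0.0456 to 0.175 for L1CAM, and the difference in human share was -1.23 to 0.132 percentage points. The cause was not tested. Depth limits genes with few human reads, such as S100A8, CEACAM1 and CEACAM6.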
